A study of Mus musculus with 36 samples.

Results

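The interferon-stimulated genes described here are 34 mouse genes taken from a list of names, and all 34 were found among the 24690 genes with a symbol in the deposited tables. The level of a gene was the sum of the FPKM values (fragments mapped to a transcript, scaled to its length and to library depth) of its RefSeq entries. Levels came from 36 RNA-seq libraries of total RNA depleted of ribosomal RNA, 12 each from the main olfactory epithelium (MOE), the vomeronasal organ (VNO) and the olfactory bulb (OB) of C57BL/6 mice aged 6 months. From weaning at 3 weeks the animals lived 4 to a cage, with females and males either apart (sex-separated females, SF, and males, SM) or together (sex-combined females, CF, and males, CM), and each tissue had 3 libraries per group. The study's methods state that SF and SM cages were kept in rooms holding only their own sex. Sex and room therefore cannot be told apart in SF against SM. Pups were born in the sex-combined cages and were euthanized soon after birth, so the housings also differed in breeding. A library was a pool of RNA from several mice. The labels give 2 mice per pool and the study's methods give another number, so the spread between libraries is one between pools. The VNO was dissected as a whole organ with the vomer bone attached. Libraries are named by tissue, group and replicate, so OB-SF3 is the third bulb library from sex-separated females.

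Interferons are secreted proteins that cells release on sensing viral nucleic acid, and nearly every nucleated cell carries the receptor for the type I family. The receptor's kinases phosphorylate Stat2, which joins Irf9 in a complex that binds the interferon-stimulated response element (ISRE) in promoters, whereas interferon gamma acts at gamma-activated sites (GAS). The genes switched on in this way encode sensors, enzymes and membrane proteins that block viruses, and in uninfected tissue a low tonic level is usual. The olfactory epithelium and the VNO line the nasal cavity and meet inhaled material, while the bulb is brain tissue.

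The libraries matched their labels. Cnga2, a channel subunit of olfactory sensory neurons, was at 131 to 259 FPKM in MOE and at no more than 3.72 in VNO and 0.923 in OB. Vmn1r51, a vomeronasal receptor, was at 2.07 to 4.55 FPKM in VNO and at no more than 0.0724 elsewhere, while Omp, the olfactory marker protein, reached 638 to 1130 FPKM in MOE. Xist was at 11.8 to 23.2 FPKM in the female libraries and at no more than 0.0793 in the male ones, and Ddx3y at 6.56 to 16.4 FPKM in males against no more than 0.0209 in females. The estimated number of fragments assigned to genes was 3016524 to 6779893 per library.

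The promoters of several of these genes carry the element that the pathway acts on, and 8 stretches are printed here as examples of promoters with matches and, for Ifit2, without. Of the 34 genes, 25 had an entry in the RefSeq promoter table of GRCm38.p6, which holds 250 bases before and 50 after each start. The ISRE letters (GAAA, any 2 bases, GAAA), searched on both strands, were in the promoters of 17 of these 25 genes, against 3.99% of 27025 genes. The GAS letters TTCNNNGAA were in 7 of the 25, against 9.55% of all genes. Each line gives the 160 bases upstream of the start, 5′ to 3′ on the strand of the gene, with every ISRE match in capitals, and overlapping matches run together.
Ifit1 promoter, chr19:34640729-34640888, plus strand: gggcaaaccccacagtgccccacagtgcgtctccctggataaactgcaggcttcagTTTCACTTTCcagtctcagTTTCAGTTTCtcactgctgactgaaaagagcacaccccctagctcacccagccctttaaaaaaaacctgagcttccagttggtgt
Ifit3 promoter, chr19:34583369-34583528, plus strand: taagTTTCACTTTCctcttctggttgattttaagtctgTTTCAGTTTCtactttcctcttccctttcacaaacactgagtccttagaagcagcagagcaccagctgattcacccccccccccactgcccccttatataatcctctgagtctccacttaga
Isg15 promoter, chr4:156200819-156200978, minus strand: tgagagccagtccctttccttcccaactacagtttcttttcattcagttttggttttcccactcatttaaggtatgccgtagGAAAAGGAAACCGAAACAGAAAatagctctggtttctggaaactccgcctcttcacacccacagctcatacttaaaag
Oas1a promoter, chr5:120907526-120907685, minus strand: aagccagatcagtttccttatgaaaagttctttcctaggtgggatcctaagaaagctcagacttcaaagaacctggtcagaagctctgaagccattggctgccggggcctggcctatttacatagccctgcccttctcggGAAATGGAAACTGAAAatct
Bst2 promoter, chr8:71537473-71537632, minus strand: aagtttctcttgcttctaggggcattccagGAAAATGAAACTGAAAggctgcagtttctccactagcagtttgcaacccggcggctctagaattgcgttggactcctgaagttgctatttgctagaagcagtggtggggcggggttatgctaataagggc
Irgm1 promoter, chr11:48871421-48871580, minus strand: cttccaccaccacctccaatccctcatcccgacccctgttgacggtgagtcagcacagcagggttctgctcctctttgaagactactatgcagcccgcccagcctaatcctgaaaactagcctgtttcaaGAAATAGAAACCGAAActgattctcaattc
Ifit2 promoter, chr19:34550534-34550693, plus strand: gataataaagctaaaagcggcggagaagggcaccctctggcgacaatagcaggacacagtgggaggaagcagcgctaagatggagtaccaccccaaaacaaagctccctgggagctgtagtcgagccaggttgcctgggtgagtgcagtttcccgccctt
Ifit2 promoter, chr19:34550928-34551087, plus strand: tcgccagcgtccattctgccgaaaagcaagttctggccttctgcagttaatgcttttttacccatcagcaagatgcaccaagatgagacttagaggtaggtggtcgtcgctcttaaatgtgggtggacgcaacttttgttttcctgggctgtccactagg
In Ifit1 and Ifit3 the pair of matches reads on the opposite strand, and in Isg15 3 matches overlap in 1 run. The 2 start regions of Ifit2 hold none within these bases. A match is a description of letters and no evidence of binding. The printed genes with matches did not all share the patterns described below. Ifit3, Isg15, Bst2 and Irgm1 were highest in VNO and, among bulb libraries, in OB-SF3. Ifit1 was highest in MOE, and Oas1a had its highest bulb value in OB-SM2. Irf7, Irf9 and Oasl2, whose promoters held no match, were also highest in VNO and, among bulb libraries, in OB-SF3. Whether a match bears on these patterns was not tested.

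The VNO held the highest levels of these genes. The mean over 12 libraries was highest in VNO for 31 of the 34 genes, in MOE for Ifit1 and Mx2, and in OB for Ifit2, whereas 24.8% of the 14634 genes with a mean of at least 0.5 FPKM over all libraries were highest in VNO. OB was lowest for 27 of the 34. The median of the 34 gene means was 3.89 FPKM in VNO, 1.28 in MOE and 0.837 in OB. Summed over the 34 genes, each VNO library held 188 to 222 FPKM, each MOE library 76.4 to 161 and each OB library 51.9 to 76.6, so the VNO libraries did not overlap with those of either other tissue. The order VNO, MOE, OB held for 26 genes, and VNO, OB, MOE for Ifit3, Isg15, Xaf1, Gbp3 and Gbp7. In bulk tissue, fewer cells of a type and less RNA per cell cannot be told apart. By the study's RNA integrity numbers, every VNO sample was below every MOE sample, and every MOE sample below every OB sample. Tissue and RNA integrity therefore cannot be told apart either.

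**Figure D1:**
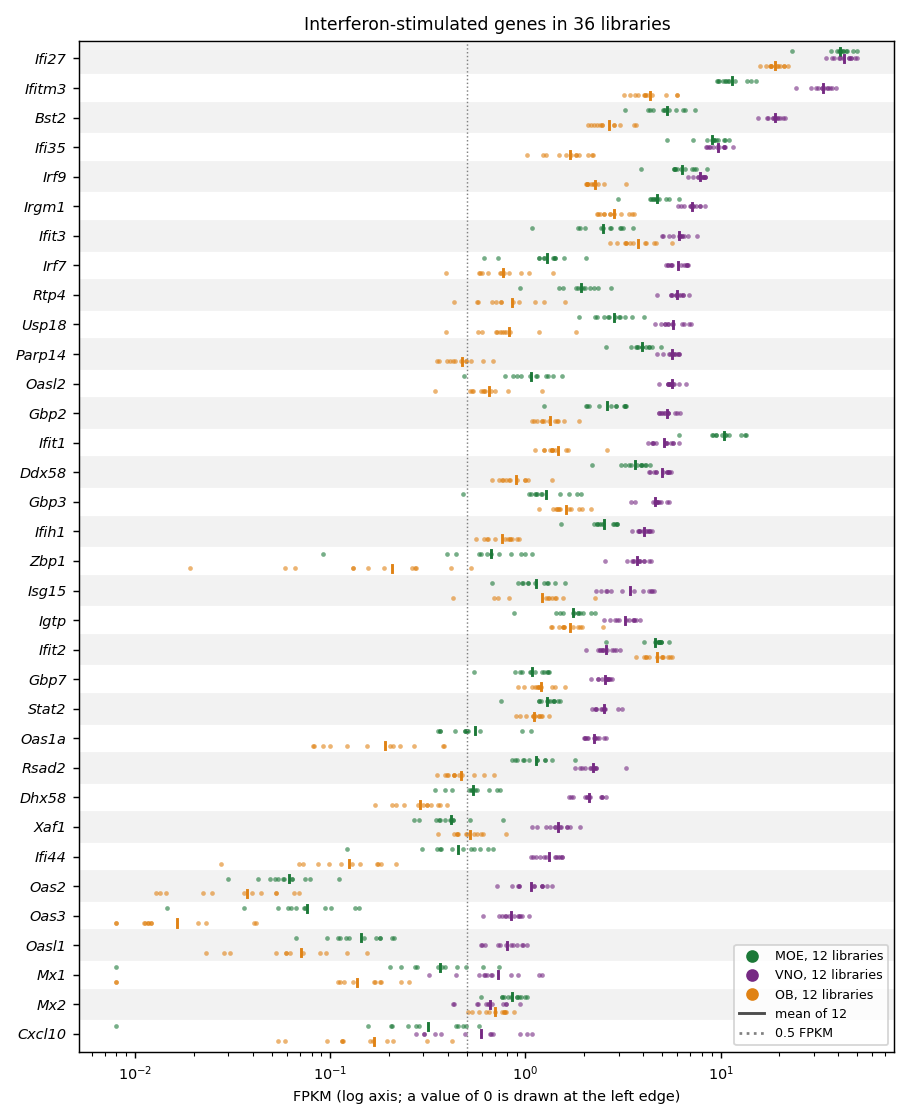
Level of each of the 34 interferon-stimulated genes in FPKM (log axis) in every library, with a point for each of the 12 libraries of a tissue and a short vertical line at their mean. Genes are ordered by their mean in VNO, from Ifi27 at the top to Cxcl10. The VNO mean lies to the right of the MOE and OB means for 31 of the 34 genes. The exceptions are Ifit1, which was highest in MOE, and Ifit2 and Mx2, in which VNO had the lowest mean. All VNO points lie to the right of all MOE points for 23 genes, and of all OB points for 30.

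Only a few of the 34 genes were abundant. The 5 highest means in MOE were those of Ifi27, Ifitm3, Ifit1, Ifi35 and Irf9, in VNO those of Ifi27, Ifitm3, Bst2, Ifi35 and Irf9, and in OB those of Ifi27, Ifit2, Ifitm3, Ifit3 and Irgm1. Ifi27, a small mitochondrial protein, led in every tissue, with 43.1 ± 4.97 FPKM in VNO, 41.1 ± 6.64 in MOE and 19.1 ± 1.85 in OB (SD, n = 12 in each tissue, as for every mean ± SD over a tissue below). The locus of Ifi27 overlaps that of Ifi27l2a, so its reads could be shared, and Isg15 and Ifitm3 each have a copy of at least 90% identity over at least 50% of their length. Means were under 1 FPKM for 5 genes in VNO, 11 in MOE and 19 in OB. A mean of at least 0.5 FPKM, the minimum for the tests within a tissue, was reached by all 34 genes in VNO, 27 in MOE and 23 in OB.

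The IFIT genes, which encode tetratricopeptide proteins that bind viral RNA, did not share an order. They lie near each other on chromosome 19 (mm9), at chr19:34625184-34651024 for Ifit2, chr19:34658019-34663472 for Ifit3 and chr19:34715379-34724499 for Ifit1. Ifit1 ran from 6.10 to 13.5 FPKM in MOE (median 10.4), from 4.27 to 6.12 in VNO (median 5.26) and from 1.12 to 2.61 in OB (median 1.36). All MOE values of Ifit1 but that of MOE-CM3, the lowest library, lay above every VNO value. Ifit2 had its lowest levels in VNO, at 2.05 to 3.04 FPKM (median 2.49) against 2.58 to 5.46 in MOE (median 4.81) and 3.68 to 5.62 in OB (median 4.86), so VNO and OB did not overlap. Ifit3 was highest in VNO, at 6.11 ± 0.727 FPKM, then in OB at 3.80 ± 0.853 and in MOE at 2.51 ± 0.696. Ifit3 shares 97.8% identity with Ifit3b over 97.4% of its length, so that reads could be divided between the pair.

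Isg15, a ubiquitin-like protein that is joined to other proteins, was at 3.43 ± 0.882 FPKM in VNO, 1.13 ± 0.252 in MOE and 1.22 ± 0.491 in OB. Its transcript is short, and the OB values rested on only 3 to 25.8 estimated fragments per library. Usp18, which removes Isg15 from its targets and blocks the type I receptor, was at 5.74 ± 0.779 FPKM in VNO, 2.85 ± 0.593 in MOE and 0.823 ± 0.365 in OB. For both genes the VNO and MOE libraries did not overlap.

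The transcription factors of the pathway differed in how strongly they followed the tissue. Irf7, the factor that amplifies type I interferon output, was at 5.28 to 6.79 FPKM in VNO (median 5.97), 0.614 to 2.04 in MOE (median 1.32) and 0.390 to 1.38 in OB (median 0.745). Irf9, the DNA-binding partner of Stat2, was at 7.90 ± 0.464 FPKM in VNO, 6.37 ± 1.17 in MOE and 2.28 ± 0.346 in OB. Stat2 was at 2.52 ± 0.280 FPKM in VNO, 1.28 ± 0.199 in MOE and 1.11 ± 0.121 in OB. The VNO means were thus 4.71 times those of MOE for Irf7 but 1.24 times for Irf9 and 1.97 times for Stat2.

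The OAS genes, whose enzymes make 2′-5′ oligoadenylate on meeting double-stranded RNA, showed some of the widest tissue ratios at low levels. Oas1a (chr5:121346266-121357534, mm9) was at 2.23 ± 0.20 FPKM in VNO, 0.552 ± 0.228 in MOE and 0.191 ± 0.108 in OB. Its neighbour Oas3 was at 0.845 ± 0.12 FPKM in VNO and 0.0757 ± 0.0364 in MOE, and in OB it was listed at 0 in 2 libraries and at no more than 0.0413 in the rest. Oas2 was at 1.07 ± 0.20 FPKM in VNO, 0.0611 ± 0.0205 in MOE and 0.0373 ± 0.020 in OB, a ratio of means of 17.5 between VNO and MOE. Its values rested on only 1.33 to 5.51 estimated fragments per library in MOE and 0.493 to 3.82 in OB, so this ratio is rough. The OAS-like pair followed the same order, with Oasl2 at 5.61 ± 0.442 FPKM in VNO, 1.07 ± 0.291 in MOE and 0.647 ± 0.213 in OB. Oasl1 was at 0.802 ± 0.148, 0.144 ± 0.0459 and 0.0706 ± 0.0391 FPKM in VNO, MOE and OB. Oas1a shares 97.5% identity with Oas1g over 98.7% of its length, so its reads could be divided.

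The genes of the Mx GTPases, a family that traps viral ribonucleoproteins, were low in all tissues. The Mx1 value came wholly from a RefSeq entry of the non-coding class. For Mx2 such an entry gave 71.4% of the value in MOE, 71.0% in VNO and 85.6% in OB. These are thus levels of transcripts and say nothing of a working protein. Mx2 was the gene most alike across them, at 0.853 ± 0.121 FPKM in MOE, 0.696 ± 0.117 in OB and 0.657 ± 0.151 in VNO. Mx1 was at 0.725 ± 0.268 FPKM in VNO and was listed at 0 in MOE-SM2, OB-CF3 and OB-CM2, where 3 fragments would have given 0.0684 to 0.0968 FPKM. In the other libraries Mx1 reached 0.734 FPKM in MOE and 0.254 in OB.

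The cytosolic RNA sensors were lowest in the bulb. Ddx58, the RNA helicase RIG-I, was at 5.01 ± 0.465 FPKM in VNO, 3.62 ± 0.592 in MOE and 0.890 ± 0.190 in OB. Ifih1, the helicase MDA5, was at 4.05 ± 0.289, 2.52 ± 0.412 and 0.759 ± 0.124 FPKM in VNO, MOE and OB. Dhx58, their regulatory relative LGP2, was at 2.13 ± 0.317 FPKM in VNO, 0.541 ± 0.121 in MOE and 0.290 ± 0.0692 in OB. Zbp1, a sensor of left-handed nucleic acid that triggers cell death, was at 3.73 ± 0.492 FPKM in VNO and 0.667 ± 0.281 in MOE, and its 0.208 ± 0.150 in OB rested on 0.49 to 8.02 estimated fragments.

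Of the membrane effectors, Ifitm3, which blocks fusion of viruses with endosomes, was at 24.5 to 39.3 FPKM in VNO (median 33.6), 9.56 to 15.2 in MOE (median 10.8) and 3.19 to 5.97 in OB (median 4.11). Bst2, the tetherin that holds budding virus on the cell, was at 15.6 to 21.4 FPKM in VNO (median 19.1), 3.22 to 7.41 in MOE (median 5.19) and 2.1 to 3.69 in OB (median 2.47). The 12 VNO libraries lay above all MOE and all OB libraries for both genes. Rsad2, the enzyme viperin, was at 2.21 ± 0.369 FPKM in VNO, 1.13 ± 0.265 in MOE and 0.466 ± 0.101 in OB.

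The guanylate-binding and immunity-related GTPases, which attack the vacuoles of intracellular pathogens and respond mainly to interferon gamma, were also highest in VNO. Irgm1 was at 7.15 ± 0.669 FPKM in VNO, 4.70 ± 0.741 in MOE and 2.83 ± 0.454 in OB, and Igtp at 3.25 ± 0.424, 1.75 ± 0.371 and 1.70 ± 0.318 in the same order. Gbp2, Gbp3 and Gbp7 lie together at chr3:142193300-142300972 (mm9). Gbp2 was at 5.34 ± 0.452 FPKM in VNO, 2.61 ± 0.642 in MOE and 1.34 ± 0.233 in OB. Gbp3 was at 4.64 ± 0.570, 1.28 ± 0.399 and 1.61 ± 0.279 FPKM in VNO, MOE and OB, and Gbp7 at 2.55 ± 0.173, 1.08 ± 0.224 and 1.19 ± 0.188. Unlike the 3 other GTPases, Gbp3 and Gbp7 thus had a mean in OB above that in MOE.

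The remaining genes had no single order. Ifi35, a leucine-zipper protein, was at 9.70 ± 1.0 FPKM in VNO, 9.07 ± 1.55 in MOE and 1.69 ± 0.384 in OB. Parp14, a mono-ADP-ribosyltransferase, was at 5.65 ± 0.424 FPKM in VNO, 3.94 ± 0.583 in MOE and 0.471 ± 0.0990 in OB. Rtp4, a relative of the receptor transporters that carry olfactory receptors to the cell surface, was at 5.95 ± 0.557 FPKM in VNO, 1.92 ± 0.461 in MOE and 0.851 ± 0.330 in OB. These 3 genes had their lowest means in the bulb. Ifi44 was at 1.33 ± 0.179, 0.449 ± 0.160 and 0.124 ± 0.0563 FPKM in VNO, MOE and OB. Xaf1, which binds an inhibitor of apoptosis, was at 1.46 ± 0.239 FPKM in VNO, 0.520 ± 0.114 in OB and 0.414 ± 0.130 in MOE. Cxcl10, a chemokine for T cells, was at 0.595 ± 0.294 FPKM in VNO and 0.168 ± 0.107 in OB, and in MOE it was listed at 0 in MOE-CM3 and reached 0.576. Its locus overlaps that of Art3, so its reads could be shared.

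The tissues were compared with limma on log2(FPKM + 0.5) over all 36 libraries, with Benjamini-Hochberg adjustment of the p-values across every gene tested and a call at an adjusted p under 0.05. Most genes of any kind differed between tissues, so the counts are set against those of all genes. Among the genes tested, 82.6% were called between MOE and VNO, 85.1% between MOE and OB and 85.8% between VNO and OB. Without a filter on low values, all 34 genes were tested. MOE was lower than VNO for 29 of the 34 and higher for 3, against 32.1% lower and 38.4% higher among 22091 genes. VNO was higher than OB for 32 and lower for 1, against 35.4% and 36.5%. MOE was higher than OB for 26 and lower for 3, against 40.3% and 32.4%. With the filter, 29 of the 34 were tested, and Oas2, Oas3, Oasl1, Mx1 and Cxcl10 were not. MOE was then lower than VNO for 24 and higher for 3 (34% and 48.6% of 14627 genes), VNO higher than OB for 27 and lower for 1 (37.8% and 48%), and MOE higher than OB for 22 and lower for 3 (45.7% and 39.3%). A gene that passed the filter through VNO alone had to differ, so the filtered counts describe the fit only.

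Between MOE and VNO, differences on the log2(FPKM + 0.5) scale are given as MOE minus VNO, with the standard error and the adjusted p of limma. The genes furthest below VNO were Oasl2, at -1.98 ± 0.0772 (adjusted p = 4.97e-20), and Irf7, at -1.90 ± 0.0878 (adjusted p = 3.65e-18). They were followed by Zbp1, at -1.89 ± 0.126 (adjusted p = 2.38e-14), and Bst2, at -1.77 ± 0.0850 (adjusted p = 9.48e-18). Ifit1 was higher in MOE by 0.95 ± 0.0953 (adjusted p = 2.86e-10), Ifit2 by 0.73 ± 0.0792 (adjusted p = 1.38e-09) and Mx2 by 0.23 ± 0.0636 (adjusted p = 0.00150). Under upper quartile scaling between libraries Mx2 was no longer called. Ifi27 and Ifi35 differed by -0.08 ± 0.0736 (adjusted p = 0.322) and -0.11 ± 0.0935 (adjusted p = 0.290). The 12 MOE libraries lay below all 12 VNO libraries for 23 of the 34 genes, against 19% of the 14627 genes tested. They lay above all VNO libraries for none, against 15.8%.

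Between VNO and OB, the differences were the widest of the 3 comparisons, at a median of 1.6 over the 29 genes tested against -0.12 over all genes. Ifitm3 was higher in VNO by 2.81 ± 0.0856 (limma adjusted p = 2.59e-23), Parp14 by 2.67 ± 0.0644 (adjusted p = 6.48e-26), Bst2 by 2.62 ± 0.0850 (adjusted p = 1.33e-22) and Zbp1 by 2.6 ± 0.126 (adjusted p = 4.21e-18). Ifit2 was the only gene called lower in VNO, at -0.76 ± 0.0792 (adjusted p = 4.08e-10), under every scaling except quantile normalization, where 2 were lower. Mx2 differed by -0.05 ± 0.0636 (adjusted p = 0.436). The libraries of the tissues did not overlap for 30 of the 34 genes with VNO higher, against 28.2% of all genes. With OB higher they did not overlap for Ifit2 alone, against 34.4% of all genes.

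Between MOE and OB, Ifit1 was higher in MOE by 2.47 ± 0.0953 (limma adjusted p = 1.30e-20), Parp14 by 2.19 ± 0.0644 (adjusted p = 1.08e-23), Ifi35 by 2.13 ± 0.0935 (adjusted p = 3.85e-19) and Ddx58 by 1.56 ± 0.0766 (adjusted p = 6.14e-18). Lower in MOE were Ifit3, at -0.53 ± 0.108 (adjusted p = 4.95e-05), Gbp3, at -0.27 ± 0.0831 (adjusted p = 0.00375), and Xaf1, at -0.16 ± 0.0737 (adjusted p = 0.0436). Ifit2, Isg15, Igtp and Gbp7 were not called, at differences of -0.03, -0.03, 0.02 and -0.11. This comparison depended most on scaling, since after quantile normalization 15 genes were higher and 5 lower, and Stat2, Mx2 and Dhx58, all called higher in MOE, had differences below 0. The 12 libraries of each tissue did not overlap for 10 of the 34 genes, all higher in MOE, against 24.7% of all genes. None was higher in OB without overlap, against 26.4% of all genes.

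**Figure D2:**
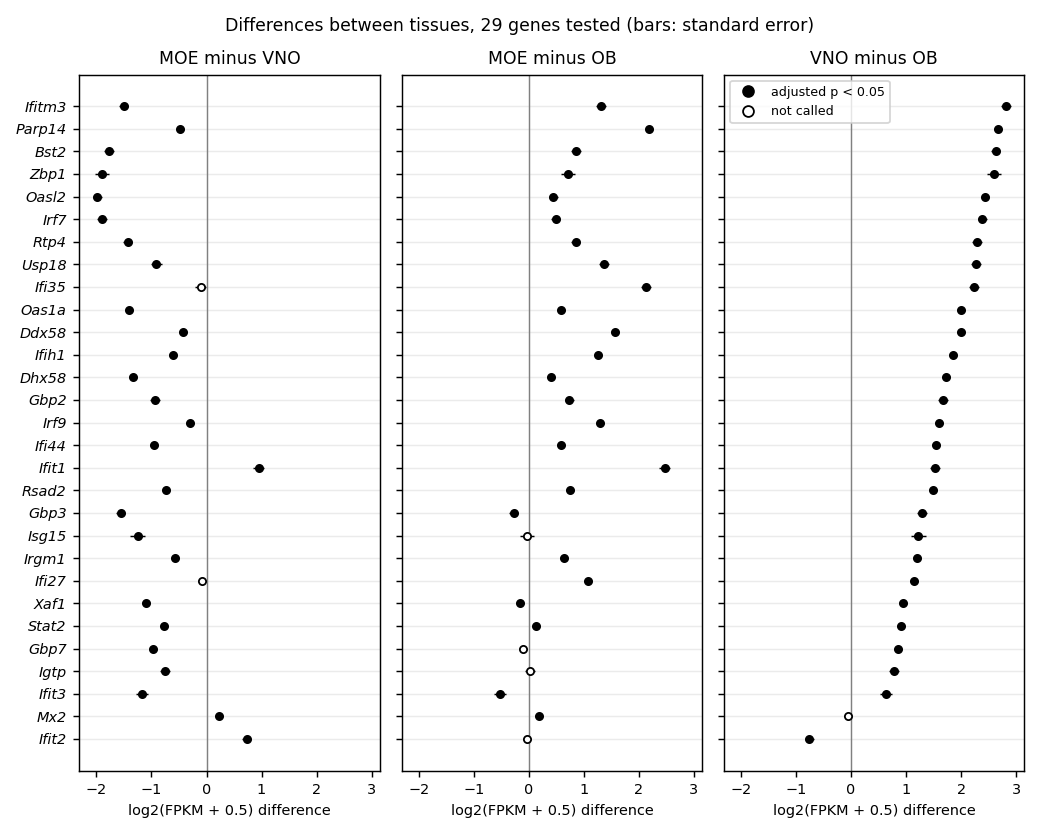
Difference in log2(FPKM + 0.5) between tissues for the 29 interferon-stimulated genes tested, with bars for the standard error. Filled points have an adjusted p under 0.05 in limma and open points do not. In VNO minus OB all points but those of Mx2 and Ifit2 lie above 0, and in MOE minus VNO Ifit1, Ifit2 and Mx2 lie above 0.

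The rest of the pathway was read from lists of further genes. Of 11 interferon genes, 1 was high enough to test. Ifne, the interferon epsilon known for its steady production in epithelium of the reproductive tract, was at 4.67 to 7.49 FPKM in the VNO libraries (median 6.41), was listed at 0 in 11 of 12 MOE libraries (0.127 in the other) and at 0 in all 12 OB libraries. The VNO libraries therefore stood clear of both other tissues for Ifne. Ifne passed the filter through VNO alone, so its call between MOE and VNO was fixed in advance and describes the fit only. Ifnk, interferon kappa of skin keratinocytes, was at 0.0813 to 0.394 FPKM in VNO and listed at 0 in all MOE libraries. The remaining 9 interferons, Ifnb1 and Ifng among them, were at no more than 0.135 FPKM in any library. Whether Ifne bears on the levels of the 34 genes was not tested.

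The receptors and kinases did not follow the VNO as a whole. Of 9 such genes, 3 were lower in MOE than in VNO and 4 higher. Jak1, a receptor kinase, was lower in MOE by a log2 difference of -1.34 (limma adjusted p = 2.01e-16), as was Ifngr1, a chain of the interferon gamma receptor (-0.82, adjusted p = 1.16e-12), whereas Ifnlr1, a chain of the lambda receptor, was higher by 0.73 (adjusted p = 3.16e-11). Both chains of the type I receptor were present in each tissue, with Ifnar1 at a mean of 3.91 FPKM in VNO, 3.99 in MOE and 3.18 in OB. Ifnar2 was at 9.05, 11.3 and 5.61 FPKM in the same order. All but 1 of the 9 were higher in VNO than in OB.

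Downstream genes moved with the VNO. Of 7 further transcription factors tested, 6 were lower in MOE than in VNO, led by Ciita, the switch of MHC class II genes (-1.26, limma adjusted p = 9.87e-20), and Irf8 (-0.94, adjusted p = 1.79e-12). Among the nucleic acid sensing genes 9 of 10 tested were lower in MOE, among them Trim25, which activates RIG-I (-1.31, adjusted p = 6.15e-19). Of 8 inhibitors of the pathway 6 were lower, with Trim30a at -1.49 (adjusted p = 4.00e-19). Of 35 further interferon-stimulated genes tested, 30 were lower in MOE and 1 higher, with Lgals3bp at -1.87 (adjusted p = 1.16e-20) and Ifi47 at -1.42 (adjusted p = 2.30e-17). Antigen presentation went the same way, with 13 of 15 MHC class I genes and 7 of 7 class II genes lower in MOE. Over all genes 34% were lower.

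Markers of other cells moved with the tissues too. The 9 neutrophil markers summed to 1068 to 1856 FPKM in VNO libraries, 146 to 353 in MOE and 0.818 to 27.7 in OB, but Ltf alone, which encodes lactoferrin, made up most of the sums in both nasal tissues, with a mean of 1424 FPKM in VNO and 187 in MOE. Of the 6 neutrophil markers that could be tested, Ltf was lower in MOE than in VNO and 3 were higher, and S100a8 had a mean of 34.6 FPKM in MOE and 28.9 in VNO. Markers of macrophages and microglia were lower in MOE than in VNO for 14 of 14 genes, and summed to 91.2 to 119 FPKM in VNO, 31.1 to 60.4 in MOE and 82.8 to 104 in OB. B and plasma cell markers summed to 14.9 to 58.2 FPKM in VNO, 4.33 to 14.6 in MOE and 0.609 to 1.07 in OB, and those of T and NK cells to 2.84 to 4.39, 0.792 to 2.41 and 0.139 to 0.583. Endothelial markers summed to 27.7 to 35.2 FPKM in VNO, 17.9 to 29.9 in MOE and 36.9 to 54.1 in OB, erythroid markers to 345 to 1414, 46.3 to 426 and 48.4 to 268 (Hbb-b2 is in the VNO and OB sums only), and bone and cartilage markers to 95.7 to 192, 47.7 to 88.9 and 1.27 to 3.15. By their medians, the sums of neutrophil, B and plasma cell, T and NK cell, erythroid and bone markers ran VNO, MOE, OB. Those of macrophage and microglia markers ran VNO, OB, MOE, and those of endothelial markers OB, VNO, MOE. The part of these cells in the levels of the 34 genes was not tested.

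Single libraries stood apart, and some of them bear on the comparisons within tissues. MOE-CM3 was the lowest of the 12 MOE libraries for 24 of the 27 interferon-stimulated genes tested, but also for 75.3% of all genes, and its median log2 distance from the median library was -0.61 for the 27 and -0.55 for all genes. MOE-SF3 was the highest for 16 of the 27, against 21.4% of all genes. VNO-SF1, with the fewest estimated fragments of the VNO libraries (3373400), was the lowest of them for 15 of the 34 genes and for 39.7% of all genes. In the study's alignment summary, MOE-CM3 and VNO-SF1 had the lowest share of concordant pairs in their tissues. OB-SF3 stood apart in these genes and not in all genes. It was the highest of the 12 OB libraries for 19 of the 23 tested, and for 24 of all 34, against 3.92% of all genes. Its median distance from the median library was 0.43 for the 23 genes and -0.02 for all genes. The next bulb library was OB-SF2, at 0.20 for the 23 and 0.09 for all genes. OB-SF3 was picked out after its values had been seen, so these values describe 1 library.

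**Figure D3:**
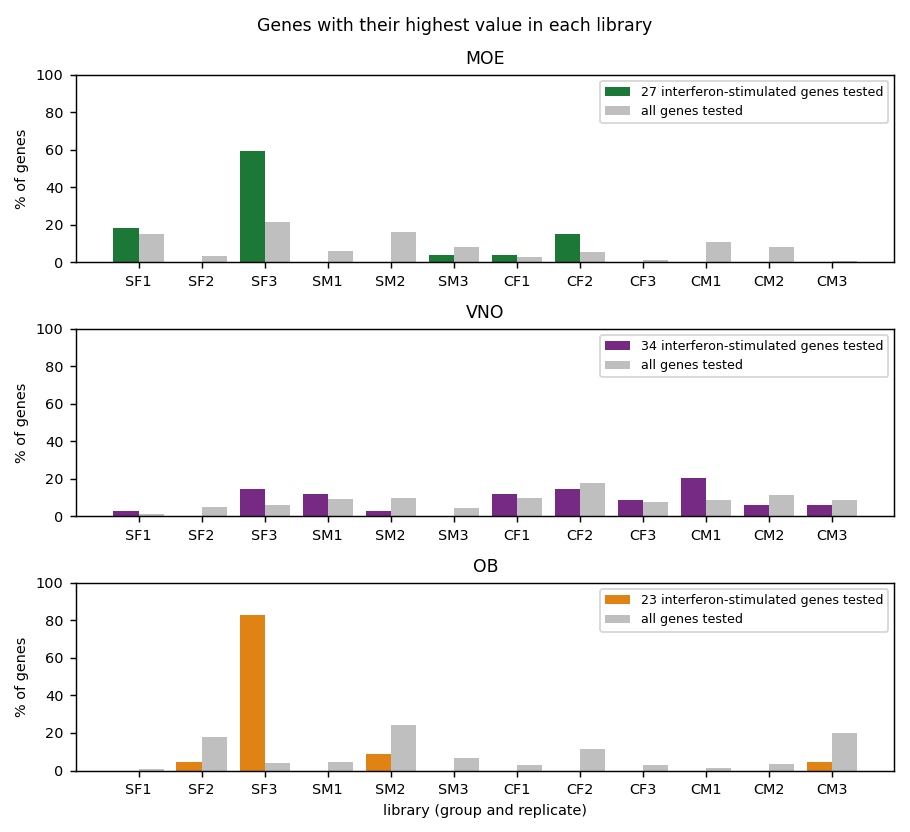
Percentage of genes with their highest value in each library, for the interferon-stimulated genes tested in a tissue (coloured bars) and for all genes tested (grey bars). In OB the SF3 library held 19 of the 23 interferon-stimulated genes but 3.92% of all genes, and in MOE the SF3 library held 16 of 27 and 21.4% of all genes.

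The genes high in OB-SF3 were of several kinds. Usp18 was at 1.82 FPKM there, against 0.392 to 1.17 in the other 11 OB libraries (median 0.738), and rested on 58.2 estimated fragments. Rtp4 was at 1.59 FPKM, against 0.431 to 1.25, and Ifit1 at 2.61, against 1.12 to 1.65. Oasl2 was at 1.22 FPKM, against 0.343 to 0.810. In each of these 4 genes the OB-SF3 value lay above the range of the others, at 1.92 to 2.47 times their median. Ifit3 was at 5.67 FPKM, against 2.70 to 4.66, Irf9 at 3.27, against 2.05 to 2.54, and Ddx58 at 1.37, against 0.672 to 1.03. Not all of the genes were high. Ifit2 was at 5.50 FPKM, within the 3.68 to 5.62 of the others, and Ifih1, Ifitm3 and Ifi35 also lay within their ranges. The promoters of Ifit2 and Ifi35 held no ISRE match, and those of Ifih1 and Ifitm3 did. Those of Irf7, Irf9 and Oasl2, which were highest in OB-SF3, held none. A part of the ISRE in this was not tested. Of all 12795 genes ranked by their distance above the other OB libraries, the first 100 held 13 of the 23.

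**Figure D4:**
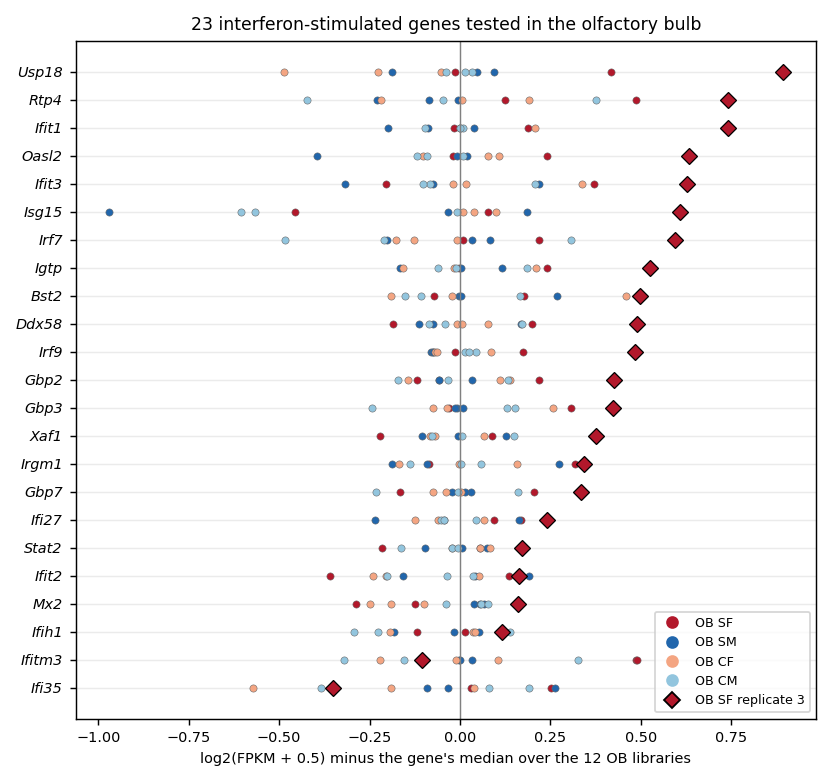
Each OB library's log2(FPKM + 0.5) relative to the median of the 12 OB libraries, for the 23 interferon-stimulated genes tested there. OB-SF3 (diamonds) is the highest library for 19 genes, and Ifit2, Ifih1, Ifitm3 and Ifi35 are the exceptions.

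Some other genes of the pathway were high in OB-SF3 as well, and others were low. Iigp1, an immunity-related GTPase, was at 1.75 FPKM there and at 0.615 to 1.05 in the other OB libraries. Of 27 further interferon-stimulated genes tested in OB, 11 were highest in OB-SF3, among them Irgm2, Gbp9, Parp9 and Ifi47. In the same list Ifitm1, Ube2l6 and Daxx lay below all other OB libraries, with Ifitm1 at 0.660 FPKM against 1.39 to 3.25. None of 8 receptors and kinases, 14 MHC class I genes and 6 MHC class II genes was highest there. The class II genes had a median log2 distance of -0.35 from the other libraries. Of them, H2-Ab1, H2-Eb1, Cd74 and H2-DMa lay below all other OB libraries. Of 14 macrophage and microglia markers 1 was, and their median log2 distance from the other libraries was -0.10. The median was -1.04 for 3 neutrophil markers and -0.06 for 7 endothelial markers. All 11 interferon genes were listed at 0 or at no more than 0.102 FPKM in each OB library.

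Within tissues, the study's question was how sex and exposure to the other sex relate to gene expression in olfactory tissues. None of the 34 genes was called in any of the 15 comparisons (SF with SM, CF with CM, their interaction, females with males and sex-separated with sex-combined, in each tissue), under limma with Benjamini-Hochberg adjustment. The smallest adjusted p over 420 tests was 0.604, and 19 tests had an unadjusted p under 0.05. Few genes of any kind were called. The share of all genes called was 0.102% for SF with SM in MOE, 0.0722% in VNO and 0.0391% in OB, and for CF with CM 0.0436%, 0.0433% and 0.0469%. It was 0.0363%, 0% and 0.00782% for the interaction, 0.0727%, 0.123% and 0.0625% for females with males, and 0.102%, 0% and 0.00782% for the housings. The median standard error of a log2 difference was 0.141 over the 420 tests. By comparison it ran from 0.0905, for females with males in VNO, to 0.271, for the interaction in MOE. Differences of up to 0.71, in the interaction in OB, were not called. With 3 libraries per group, differences well above the standard error could therefore be missed.

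In MOE, the smallest p-values between sex-separated females and males were those of Oas1a, Gbp2 and Gbp3. Oas1a was at 1.07, 0.585 and 0.961 FPKM in SF and 0.434, 0.496 and 0.357 in SM, a log2 difference of 0.55 ± 0.179 (limma adjusted p = 0.848). The SF values lay above all SM values, but CF (0.490, 0.490 and 0.50) and CM (0.365, 0.508 and 0.365) overlapped. Gbp2 gave 0.54 ± 0.220 and Gbp3 0.48 ± 0.209, both with a limma adjusted p of 1. Of the 27 genes tested, 6 had SF above SM in all libraries (7.62% of all genes) and Isg15 had SM above SF (6.54%). The median of SF minus SM over the 27 was 0.13. Without MOE-SF3, which was the highest library for 21.4% of all genes, it was 0.06. Irf7, Mx2, Ifi27 and Rtp4 had CF above CM in all libraries (3.82% of all genes) and none had CF below CM (0.313%).

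Rtp4 had the smallest p of any comparison. In MOE it was at 2.25, 2.15 and 2.74 FPKM in SF, 2.36, 1.97 and 2.02 in CF, 1.56, 1.92 and 1.82 in SM and 1.85, 1.48 and 0.941 in CM. The 6 female libraries lay above the 6 male ones, which held for 0.0582% of all genes, and no gene of the 27 had all male libraries above (0.0509%). The difference over both housings was 0.41 ± 0.129 (unadjusted p = 0.00576 and adjusted p = 1 in limma), so it did not pass over 13757 genes. Oas1a and Irf7 followed, at 0.34 ± 0.127 and 0.35 ± 0.138. Between CF and CM the leading genes were Irf7 at 0.52 ± 0.195, Rtp4 at 0.47 ± 0.182 and Rsad2 at 0.30 ± 0.184, each with a limma adjusted p of 1. The median of CF minus CM over the 27 genes was 0.15, against 0.10 over all genes. Without MOE-CM3, which was the lowest library for 75.3% of all genes, the median over the 27 was -0.04. For the interaction the leading genes were Isg15 at -0.51 ± 0.253, Oas1a at 0.42 ± 0.253 and Usp18 at 0.34 ± 0.270. For sex-separated minus sex-combined they were Gbp3 at 0.34 ± 0.147, Irf7 at 0.26 ± 0.138 and Oas1a at 0.24 ± 0.127.

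In OB, the leading genes between SF and SM were Rtp4 at 0.56 ± 0.203, Irf9 at 0.29 ± 0.114 and Oasl2 at 0.41 ± 0.169, each with a limma adjusted p of 1. Rtp4 was at 0.863, 1.25 and 1.59 FPKM in SF and 0.565, 0.676 and 0.745 in SM, and its CF (0.573, 0.927 and 0.753) and CM values (0.431, 0.710 and 1.12) overlapped. Of the 23 genes 20 were above 0 in SF minus SM, with a median of 0.21, while 24.9% of all genes were above 0. Without OB-SF3, 17 of 22 were above 0 and the median was 0.13, and the number with an unadjusted p under 0.05 in limma went from 5 to 1. Macrophage and microglia markers had a median of 0.01 in this comparison and 3 neutrophil markers one of -2.41, and their part in it was not tested. Rtp4 and Irf9 had SF above SM in all libraries, against 0.649% of all genes, and none had SM above SF (7.95%). Between CF and CM, Isg15 was higher in all CF libraries (3.08% of all genes) and Mx2 and Usp18 lower (7.14%). Usp18 led the interaction at 0.71 ± 0.274 (unadjusted p = 0.0230, adjusted p = 0.999 in limma), followed by Irf9 at 0.33 ± 0.161 and Rtp4 at 0.54 ± 0.286. Usp18 was at 0.738, 1.17 and 1.82 FPKM in SF, 0.792, 0.834 and 0.597 in SM, 0.392, 0.705 and 0.568 in CF and 0.779, 0.716 and 0.761 in CM. Its highest value was again that of OB-SF3, and CF lay below CM in all libraries while SF and SM overlapped. Usp18 also led the comparison of housings, at 0.34 ± 0.137, ahead of Irf7 at 0.24 ± 0.138 and Ifitm3 at 0.20 ± 0.125. For CF minus CM the leading genes were Mx2 at -0.21 ± 0.126, Isg15 at 0.44 ± 0.295 and Usp18 at -0.26 ± 0.194, and for females minus males Ifit1 at 0.24 ± 0.114, Oasl2 at 0.25 ± 0.12 and Rtp4 at 0.29 ± 0.143.

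In VNO, the median standard error of the difference between SF and SM was 0.128, against 0.192 in MOE and 0.154 in OB. Between SF and SM Gbp3 differed by 0.22 ± 0.119 (limma adjusted p = 0.604), Ifih1 by -0.14 ± 0.0798 and Irgm1 by -0.18 ± 0.10. Gbp3 led also over both housings, at 4.97 FPKM in females and 4.31 in males on average (0.19 ± 0.0842, limma adjusted p = 0.714), and its female libraries, from 4.62 to 5.43, overlapped with the male ones, from 3.48 to 4.80. Bst2 and Mx2 followed, at 0.12 ± 0.0654 and -0.18 ± 0.108. Between CF and CM Gbp2 differed by 0.17 ± 0.0838, Mx2 by -0.28 ± 0.153 and Ifi27 by 0.21 ± 0.132. The leading genes of the interaction were Gbp2 at -0.25 ± 0.119, Ifih1 at -0.20 ± 0.113 and Ddx58 at -0.24 ± 0.139. Those of the housings were Oas2 at -0.17 ± 0.10, Rsad2 at -0.15 ± 0.0962 and Ifitm3 at -0.13 ± 0.0976. Mx1 and Ifih1 had SM above SF in all libraries (13% of all genes) and none had SF above SM (1.58%), while Gbp3 had CF above CM (5.44%) and Mx2 CM above CF (3.26%). Over the 34 genes all differences between SF and SM lay between -0.23 and 0.22, and Ifne was not called in any VNO comparison.

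**Figure D5:**
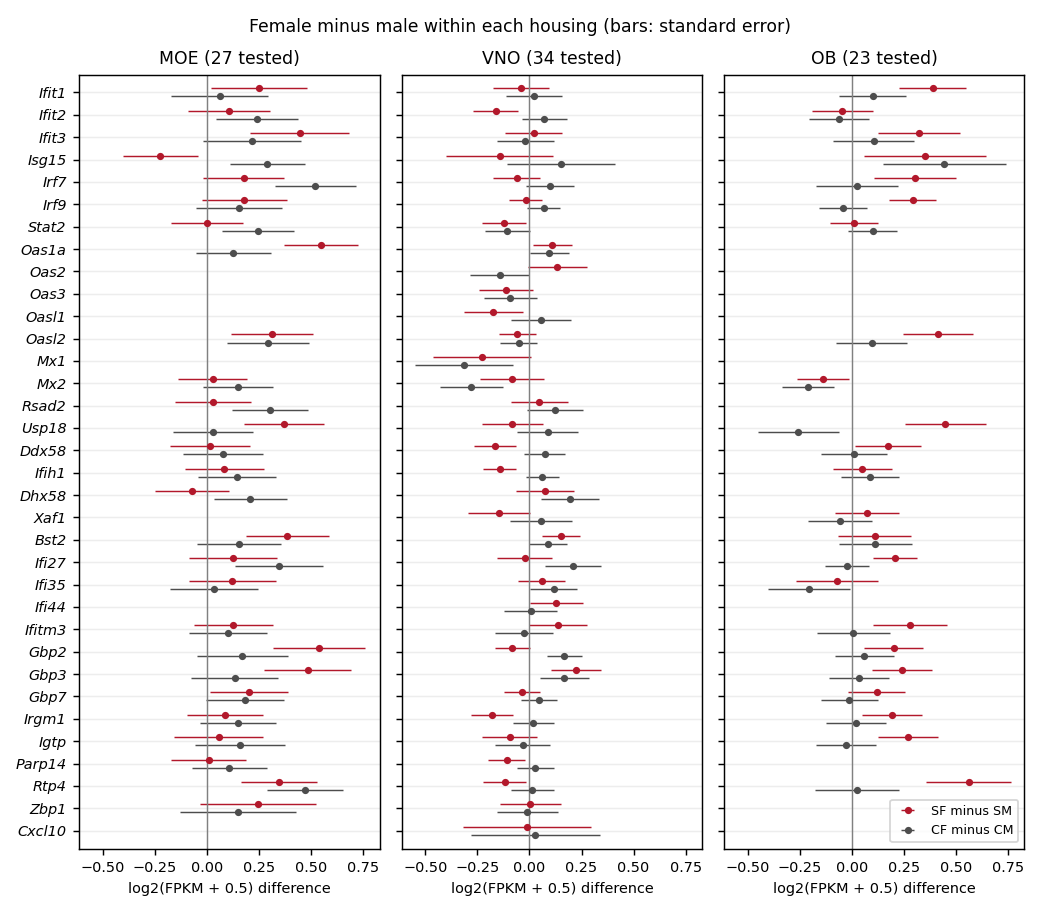
Female minus male difference in log2(FPKM + 0.5) for the interferon-stimulated genes tested in each tissue, for sex-separated (SF minus SM) and sex-combined mice (CF minus CM), with bars for the standard error of limma. No point passed an adjusted p of 0.05. For SF minus SM the points in VNO lie between -0.23 and 0.22, and those in MOE and OB reach 0.55 and 0.56.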

How the data were processed

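Stranded total RNA libraries depleted of ribosomal RNA were sequenced as paired ends. The submitters' processing notes name TopHat2 2.1.0, Cufflinks 2.2.1.0 and the mouse build mm9. The deposited values are FPKM per RefSeq entry, computed by the authors with Cufflinks for each library, with 95% limits. Whether Cufflinks was told the strand is not given in the sources used here, so reads of overlapping genes could be shared. FPKM is relative to each library's mapped fragments, and the number of fragments behind a value was estimated from its limits and covers counting error only.

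Entries were summed by symbol (24632 to 24639 genes per tissue, before 1 to 5 genes without a valid estimate were left out of the tests). Values were tested as log2(FPKM + 0.5), a scale that understates changes of low genes, with limma 3.58.1 in R 4.3.3 (trend, cell means of the groups) over genes with a mean of at least 0.5 FPKM, and p-values were adjusted by Benjamini-Hochberg over all genes tested. Each tissue was fitted on its 12 libraries, and tissues on all 36. P-values measure the spread between pools, and whether the same animals gave all 3 tissues was not given. The fit was tested on simulated data. Copies were found with minimap2 2.31-r1302, and other steps used Python 3.11.15, numpy 2.4.6, pandas 2.3.3, scipy 1.17.1 and matplotlib 3.10.9.

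The 34 genes and all other lists were chosen with earlier results of these data known. Named in the text are all 34 genes with their level, the 4 largest called differences in each direction between tissues, the 3 smallest p-values within a tissue where none was called, the 5 highest means per tissue and up to 3 genes of smallest p per pathway list. Other genes named, among them those of the OB-SF3 description, were chosen after their values were seen. Replicate numbers are shared between groups in the labels. Same-numbered SF and SM libraries of VNO deviated together (correlations of 0.127, 0.162 and 0.202), which meets the bar of 0.1 set for pairing. Those of SF and CF in VNO, which were not compared directly, met it too (0.1005, 0.273 and 0.135). Same-numbered libraries of the other comparisons did not all do so. Alternatives were other pseudocounts, no filter, quantile normalization, upper quartile scaling, the replicate number as a block, only the 6 libraries compared, and leaving out each library. Values of 1 gene of the pathway outside the 34 are not reported here.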

Additional observations from a re-analysis of the deposited data

How the results depend on the processing

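The number of genes called in either direction stayed within 1.5 times the reported number under every alternative run. By direction, quantile normalization gave 5 lower genes in place of 3 in MOE against OB, and 2 in place of 1 in VNO against OB. No gene was called within a tissue in any run. Of the log2 differences of single genes, 3396 kept their direction and side of the threshold, 31 lost the call, 7 gained it and 4 changed sign. The sign changes were Stat2 (-0.042), Mx2 (-0.13) and Dhx58 (-0.073) in MOE minus OB after quantile normalization, and Mx2 in VNO minus OB after upper quartile scaling (0.16). The causes were not tested. In MOE against OB, the call of Xaf1 was lost in 14 fits that left out a library and that of Stat2 in 10, and quantile normalization ended the calls of Ifi44, Oas1a, Oasl2 and Zbp1. Quantile normalization and upper quartile scaling each added calls for Ifi27 and Ifi35, both lower in MOE than in VNO. Upper quartile scaling moved the median of all genes from 0.15 to -0.05 in MOE minus VNO and from -0.12 to 0.15 in VNO minus OB. Leaving out single libraries gave 21 to 22 higher and 2 to 3 lower genes in MOE against OB. The median of MOE CF minus CM was -0.04 to 0.29 and that of OB SF minus SM 0.13 to 0.35.

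The labels number the replicates alike in each group, but same-numbered libraries did not deviate together across tissues, with correlations of deviations from -0.26 to 0.27 over 36 pairs. Within tissues the correlations over 18 pairs were -0.063 to 0.235 in MOE, -0.14 to 0.273 in VNO and -0.125 to 0.205 in OB. Of the comparisons of 2 groups, all 3 pairs were over 0.1 in SF with SM in VNO. The same held for SF with CF in VNO, which were not compared directly. With the replicate number as a block, 3 genes were higher and 24 lower in MOE than in VNO, 22 and 3 in MOE against OB, and 27 and 1 in VNO against OB, and 0 were called within tissues by limma, where 19 tests had an unadjusted p under 0.05 without the block. Depth limited the low genes most. In some OB libraries Oas2, Oasl1 and Zbp1 rested on less than 1 estimated fragment and Oas3 and Cxcl10 on about 1. Mx1, where it was not at 0, rested on as few as 4.13.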
